A study of Mus musculus with 2 samples.

Results

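Mef2a, Mef2b, Mef2c and Mef2d encode the myocyte enhancer factor 2 (MEF2) transcription factors. The members described here are these 4 genes of the 21938 protein-coding genes in the annotation. These genes were chosen by name and not by any measured value, though with earlier results of these data known. Their chromatin was read in DNase-seq, an assay in which the nuclease DNase I cuts accessible DNA, so that regions of frequent cutting (peaks) mark open chromatin and short protected stretches inside them (footprints) mark where DNA may be covered by protein. The tissue came from female B6CASTF1/J mice, a hybrid of C57BL/6J and the wild-derived CAST/EiJ strain, at 25 days of age, and was labelled as a hippocampal layer, without saying which. The study held 2 libraries, biological replicates 1 and 2 of this 1 group, with no treatment, genotype contrast or control tissue. Both carry the same donor entry and different tissue samples, so the spread between them may be technical.

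MEF2 proteins are MADS-box factors that bind an A/T-rich element as homodimers or heterodimers. In neurons they are held in check by class IIa histone deacetylases and switched on by calcium entry through the phosphatase calcineurin and by MAP kinases, and they are known for restraining the number of excitatory synapses. Mef2c is known for its role in cortical and hippocampal neurons and in heart and immune cells, Mef2a is prominent in heart and in cerebellar neurons, Mef2d is expressed widely, and Mef2b is best known from germinal centre B cells.

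The sequences upstream of the members are shown because they differ in base composition and in motif matches. Each line gives the 250 bases before a start that RefSeq lists, on the GRCm38.p6 build (mm10), 5′ to 3′ in the direction of transcription, with matches to any of the motifs searched in capitals. None of the 4 windows overlaps an annotated exon, and since the reference is that of C57BL/6J, the CAST copy of the hybrid may differ from it.
Mef2a, chr7:67372859-67373108, minus strand: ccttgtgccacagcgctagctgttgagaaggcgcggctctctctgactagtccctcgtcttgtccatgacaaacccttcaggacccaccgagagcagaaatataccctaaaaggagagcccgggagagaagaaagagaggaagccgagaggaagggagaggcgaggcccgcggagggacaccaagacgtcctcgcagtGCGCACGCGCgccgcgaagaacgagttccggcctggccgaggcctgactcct
Mef2d, chr3:88142122-88142371, plus strand: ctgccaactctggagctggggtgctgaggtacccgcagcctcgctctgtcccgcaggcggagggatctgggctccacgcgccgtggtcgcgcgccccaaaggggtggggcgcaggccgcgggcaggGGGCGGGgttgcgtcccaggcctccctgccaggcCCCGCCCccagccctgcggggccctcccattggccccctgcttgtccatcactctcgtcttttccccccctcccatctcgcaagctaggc
Mef2b, chr8:70152511-70152760, plus strand: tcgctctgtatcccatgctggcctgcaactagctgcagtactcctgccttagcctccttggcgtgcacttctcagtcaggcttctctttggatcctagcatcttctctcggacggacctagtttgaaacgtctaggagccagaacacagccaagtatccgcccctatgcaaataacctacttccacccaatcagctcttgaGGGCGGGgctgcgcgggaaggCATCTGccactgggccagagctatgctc
Mef2c, chr13:83503784-83504033, plus strand: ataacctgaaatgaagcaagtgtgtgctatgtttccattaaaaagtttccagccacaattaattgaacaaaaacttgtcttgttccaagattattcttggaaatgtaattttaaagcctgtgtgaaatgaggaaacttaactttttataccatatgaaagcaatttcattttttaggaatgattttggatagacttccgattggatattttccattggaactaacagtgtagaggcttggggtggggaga
The Mef2a window held 61.6% G and C and 21 CpG dinucleotides, and its capitals mark a match to the NRF1 motif (GCGC, any base, then TGCGC). The Mef2d window held 73.2% G and C and 19 CpG, and its capitals mark 2 matches to the SP/KLF motif GGGCGGG, one on each strand. The Mef2b window, at the start that lies 13.1 kb inside the gene, held 56% G and C and 9 CpG, with an SP/KLF match and an E-box CAGATG. The window at the outermost Mef2c start held 33.6% G and C and 1 CpG, with no match. RefSeq lists 2 further Mef2c starts, not printed: the window before 83523656, close to the open starts of the gene, held 44.8% G and C, 6 CpG and an SP/KLF match, and that before 83573607 held 49.6% G and C, 4 CpG, a match to the AP-1 motif TGANTCA and a CAGATG. Over all 32851 windows of the same table the medians were 52.4% G and C and 6 CpG. NRF1 matches stood in 3.74% of them, SP/KLF matches in 23.4%, AP-1 matches in 6.75% and CAGATG in 14.4%, searched on both strands.

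One sequence at Mef2a carries a match to the element that the family itself binds. The line shows 30 bases across the outermost Mef2a start, with the match to the MEF2 motif in capitals.
Mef2a start, chr7:67372841-67372870, minus strand: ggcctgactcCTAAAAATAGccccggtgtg
The match (chr7:67372851-67372860) began 2 bases before the annotated start, and its other 8 bases fell at and after it. A footprint of replicate 1 covered 7 of its 10 bases and one of replicate 2 covered 4. These did not count as the same footprint. The one of replicate 2 (chr7:67372823-67372854, 32 bases) ended inside the match. Its counterpart in replicate 1, 20 bases wide, lay within that span.

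All 4 members had an open promoter, and in each of them both libraries had a peak at the same start. A gene counted as open where each library had a peak of its strict (shorter) list within 500 bp of an annotated start, not necessarily the same one. By the same rule 54.2% of all protein-coding genes were open, and with the longer, less strict peak list of each library 59.7% were. In single libraries the share was 60.2% in replicate 1 and 54.8% in replicate 2, and all 4 members were open in each. With 4 members such a count says little about the family, and the levels differed widely between its genes. Signal is the value that the deposited peak lists give for each peak. Its scaling is not stated, and it ran higher in replicate 1: the promoters of open genes had a median of 4.30 in replicate 1 and 1.80 in replicate 2, and the median ratio of the libraries was 2.37 per gene.

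Mef2a had the strongest promoter of the family, with a highest signal of 7.77 in replicate 1 and 3.13 in replicate 2. These values stood at percentiles 87.1 and 89.8 of the open genes of their library. Mef2b followed with 6.14 and 2.66, at percentiles 74.3 and 79.7. Both were high in both libraries. Mef2d gave 5.12 and 1.92, near the middle of the open genes at percentiles 62.5 and 55.0. Mef2c was the lowest with 1.79 and 0.750, at percentiles 13.3 and 9.98.

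With the 500 bp window the order Mef2a, Mef2b, Mef2d, Mef2c was the same in both libraries. Within 250 bp Mef2b fell to 2.29 in replicate 1, below Mef2d (5.12), and stayed above it in replicate 2 (2.66 against 1.92), so that the place of Mef2b depends on the window. On the deposited scale the means were 5.45 ± 3.28, 4.40 ± 2.46, 3.52 ± 2.26 and 1.27 ± 0.738 (SD, n = 2 libraries). These spreads include the difference in scale between the libraries. No gene differed from its neighbour in the order by more than the larger of their spreads. The ratios of the libraries for the 4 members lay between 2.31 and 2.67, inside the interquartile range of all open genes, which ran from 1.95 to 2.89. In percentiles of each library, and with the 500 bp window, the ranges of neighbouring members did not overlap. With 1 group of 2 libraries no test of these differences could be made. In tissue of mixed cells, a lower signal from fewer cells with an open promoter and from less cutting per cell cannot be told apart.

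**Figure D1:**
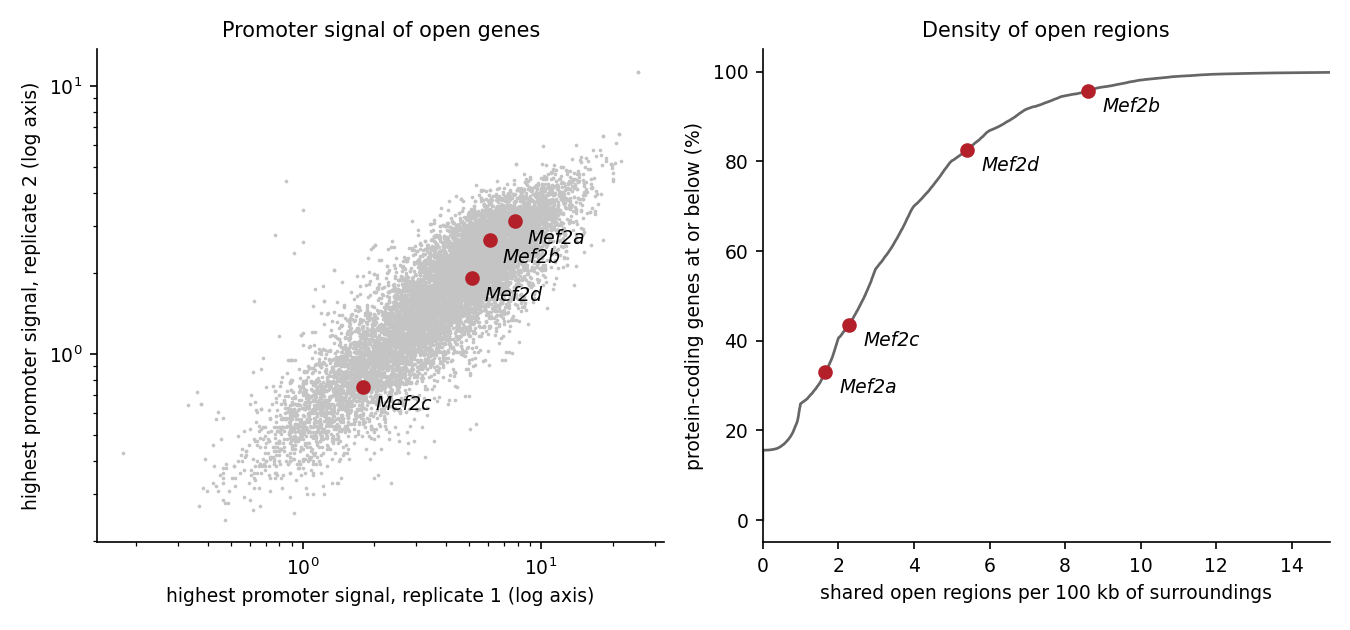
Left, highest promoter signal of each open protein-coding gene in replicate 1 (x) and replicate 2 (y), log axes, grey points, with the MEF2 genes in red; right, the share of protein-coding genes (%) at or below a given number of shared open regions per 100 kb of surroundings (x), with the MEF2 genes in red. Mef2a, Mef2b and Mef2d lie in the body or upper part of the promoter cloud and Mef2c in its lower part (1.79 and 0.750), whereas in region density Mef2b is highest (8.61) and Mef2a lowest (1.65).

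Markers of the tissue gave a scale for these levels. All 4 pan-neuronal markers (Rbfox3, Map2, Snap25, Syt1) and 3 of 6 excitatory neuron markers were open, with signals from 0.684 to 3.86 in replicate 1 and from 0.788 to 1.84 in replicate 2. Of the markers of other cells, 1 of 4 astrocyte genes was open, Gfap, with 6.85 in replicate 1, above all of these neuronal markers, and 1.58 in replicate 2, and none of the 5 interneuron, 4 oligodendrocyte, 4 microglial, 4 vascular, 3 hepatocyte and 3 skeletal muscle genes was. Mef2c lay within the range of these open neuronal markers in replicate 1 and just under it in replicate 2. With the same 500 bp window Mef2a, Mef2b and Mef2d lay above the range in both libraries. For Mef2b this rests on a region that other genes share, described below. Within 250 bp its value in replicate 1 was 2.29, inside the range that the markers had with 500 bp.

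The annotation gives the 4 genes 55 transcripts and 43 starts. A single start counted as open where both libraries had a strict peak within 500 bp of it. By this rule 17 of the starts were open, against 42.8% of the 93513 starts of all protein-coding genes (47.8% with the longer lists). Starts no more than 500 bp apart were joined into 20 groups, and in each gene exactly 1 group was open.

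The open promoter of Mef2a (ENSMUSG00000030557.17, chr7:67231163-67372858, minus strand) was its outermost one. The gene is 142 kb long, with 12 transcripts from 7 starts in 5 groups. The outermost group holds 2 starts and 7 of the transcripts, and a shared region of 380 bp (chr7:67372801-67373180), that is, overlapping peaks of both libraries, covered both starts. It held 6 shared footprints, that is, footprints of replicate 1 overlapped by one of replicate 2 over at least 50% of the shorter. Where 1 footprint of replicate 2 overlapped several of replicate 1, each of these was counted. This was so here at chr7:67372920-67372943 and chr7:67372920-67372945, which share a footprint of replicate 2. Of the 1032 bases within 500 bp of these starts, 1028 had a cut rate with an FDR (false discovery rate) at or under 0.001 in replicate 1 and 684 in replicate 2. The lowest FDR was 3.84e-76 in replicate 1 and 8.88e-48 in replicate 2. Of all start groups of the family this was the smallest in replicate 1, whereas in replicate 2 the outer group of Mef2b was smaller (9.11e-53). At the other 4 groups, 55.9 to 107 kb into the gene, none of the files listed any peak, footprint or base of either library.

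Mef2d (ENSMUSG00000001419.17, chr3:88142372-88172086, plus strand), at 29.7 kb one of the 2 short genes, had the same layout. Its outermost group of 4 starts carries 5 of 7 transcripts, and a shared region of 400 bp (chr3:88142081-88142480) covered the outer 2 of them. Of 1203 bases around this group, 870 passed an FDR of 0.001 in replicate 1 and 446 in replicate 2. Of the 2 shared footprints the longer (chr3:88142279-88142321) lay upstream of the start and held an SP/KLF match of the printed window, and the other lay just after the start. The match at position −124 was covered over its full 7 bases by a footprint of replicate 1 and by none of replicate 2, and the match at −90 over 7 bases in replicate 1 and 5 in replicate 2. A further region near the outer starts (chr3:88142598-88142812) was found in replicate 1 only (1.27). A start 20.6 kb inside the gene had a weak peak in replicate 1 (1.42) and only in the longer list in replicate 2 (0.885). The innermost start, at 25.9 kb, had nothing listed.

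Mef2b (ENSMUSG00000079033.10, chr8:70139711-70167488, plus strand, 27.8 kb) was open at its outermost start, but other genes share the open region. The region (chr8:70139081-70139520) is centred at −411 bp, upstream of the start, and it also lies within 500 bp of the starts of Rfxank, which encodes a subunit of the RFX complex that activates MHC class II genes, and of Borcs8, which encodes a subunit of a complex that positions lysosomes. The nearest Borcs8 start lies 2 bp from that of Mef2b, and the nearest Rfxank start upstream at −557 bp, inside the region. All 3 genes therefore share the same values, 6.14 and 2.66. With the window narrowed to 250 bp, the mean over the libraries fell from 4.40 to 2.47, under that of Mef2d (3.52). The strong peak of replicate 1 then lay outside the window, and a weaker one of replicate 1 only (2.29, chr8:70139541-70139780) took its place. In replicate 2 this weaker region held no strict peak, although all 240 of its bases had an FDR at or under 0.001.

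Only 1 of the 5 Mef2b transcripts begins at that outer start. The other 4 begin 13.1 kb further in, at 2 starts 3 bp apart just after the RefSeq window printed above. There replicate 1 had a peak of 1.40 and 208 bases at an FDR of 0.001 or less, and replicate 2 had no peak in either list and 0 such bases. The start from which most Mef2b transcripts are annotated thus had a peak in 1 library of 2.

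Mef2c (ENSMUSG00000005583.16, chr13:83504034-83667080, plus strand, 163 kb) was the member with the most annotated starts and the faintest promoter. It has 31 transcripts and 27 starts in 10 groups, against a median of 3 starts per protein-coding gene. Its outermost group, with 6 transcripts, had no peak, footprint or listed base in either library. The A/T-rich window printed above is the sequence just before it. All 10 open starts belonged to 1 group, between 20.3 and 20.9 kb into the gene (83524291 to 83524920), from which 10 transcripts begin.

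Even this group was open over several weak peaks. In replicate 1 its strongest peak (1.79, chr13:83524701-83524960) lay at the far end, and in replicate 2 the strongest (0.750) lay at the near end, so the highest values of the libraries came from different places. The region shared by both (chr13:83524235-83524500) had 1.04 in replicate 1 and 0.750 in replicate 2. A peak of replicate 2 (0.735, chr13:83524641-83524700) ended on the base before the strong peak of replicate 1 began. Of the 1630 bases around the group, 950 passed an FDR of 0.001 in replicate 1 and 325 in replicate 2, and 1 shared footprint was found. When only the stronger 50% of the peaks of each library were used, none of the Mef2c starts was open. The second group, 19.4 kb in, had a peak of 1.15 in replicate 1 and only a longer-list peak of 0.608 in replicate 2. At the 7 groups further in, up to 149 kb, nothing was listed in any file.

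**Figure D2:**
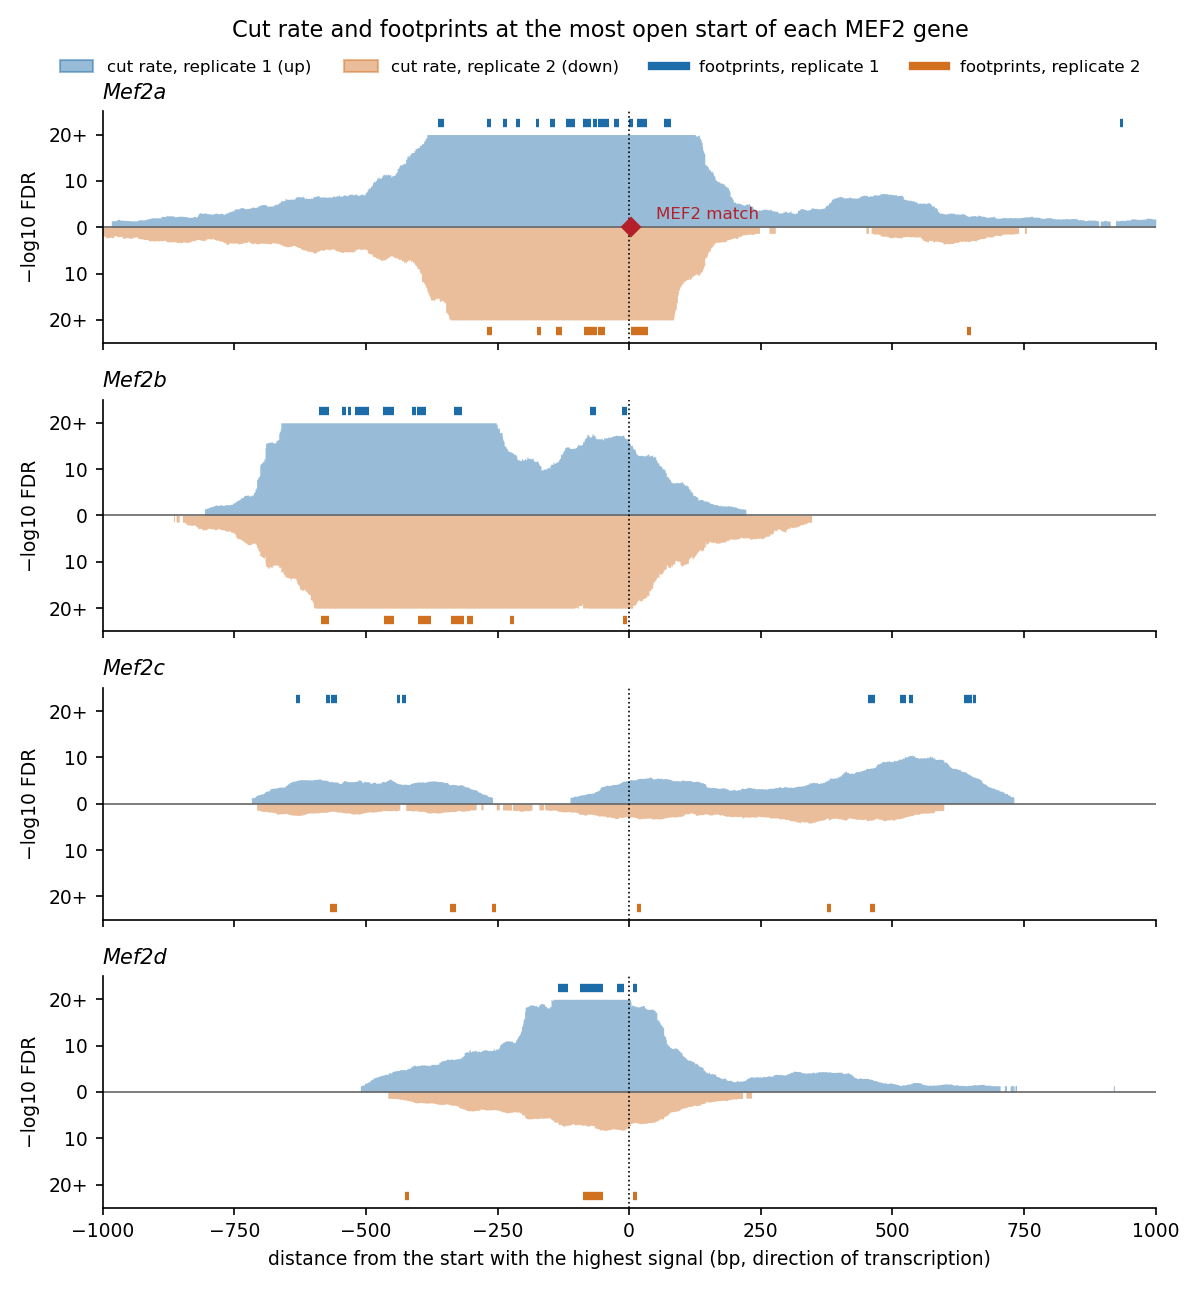
Cut-rate evidence, −log10 of the deposited FDR (capped at 20), and footprints within 1000 bp of the start of each MEF2 gene that has the highest signal (the outermost of these where several tie), in the direction of transcription; replicate 1 is drawn upward in blue and replicate 2 downward in orange, short bars are footprints, and the red diamond is the MEF2 motif match at Mef2a. Mef2a reaches the cap in both libraries, and Mef2c stays below 20 in both. The block at Mef2b covers the region centred at −411 bp and also the start itself.

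Open start groups were richer in CpG than the others. In 1001 bp centred on the first start of each group, the 4 open groups held 46 to 117 CpG, and the 16 others 4 to 36. The observed to expected CpG ratio was 0.668 to 0.888 in the open groups and 0.129 to 0.688 in the others, so these ranges overlapped. The closed group with 36 CpG and the ratio of 0.688 was the second Mef2c group, next to the open one, where replicate 1 alone had a strict peak. The lowest count among the open groups, 46, was that of Mef2c, and the highest, 117, that of Mef2a. This is a description of 20 sites in 4 genes, and windows of neighbouring groups overlap in part.

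Beyond the promoters, the 4 genes lay in different kinds of neighbourhood. In the gene bodies and 50 kb on either side, 28 regions were open in both libraries (shared regions, joined where peaks overlapped by at least 1 bp). Mef2b had 11, Mef2d 7, Mef2c 6 and Mef2a 4, and the median protein-coding gene 4. Per 100 kb these were 8.61 for Mef2b, 5.40 for Mef2d, 2.28 for Mef2c and 1.65 for Mef2a, against a median of 2.70. The short genes Mef2b and Mef2d thus lay in denser surroundings than the long genes Mef2c and Mef2a. The order did not follow promoter strength, since Mef2a had the strongest promoter and the sparsest surroundings. Shared footprints numbered 26 at Mef2b, 16 at Mef2d, 10 at Mef2c and 10 at Mef2a, against a median of 7. Per 100 kb these were 20.3, 12.3, 3.80 and 4.14, against a median of 4.88, so that Mef2b and Mef2d lay above the median gene and Mef2c and Mef2a below it. The counts of Mef2a and Mef2b each include footprints of replicate 1 that share 1 footprint of replicate 2.

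Of the 28 shared regions, 12 lay at an annotated start, 5 of them at a start of a MEF2 gene, 7 in introns, 1 in an exon and 8 between genes. The 12 at starts had median signals of 5.06 and 2.00, and the 16 others 2.16 and 0.915. Replicate 1 had the higher value in 27 of the 28, the exception being an intron region of Slc25a42 near Mef2b (0.809 and 0.855). A further 32 regions were found in replicate 1 only (median 1.15) and 5 in replicate 2 only (median 0.510).

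**Figure D3:**
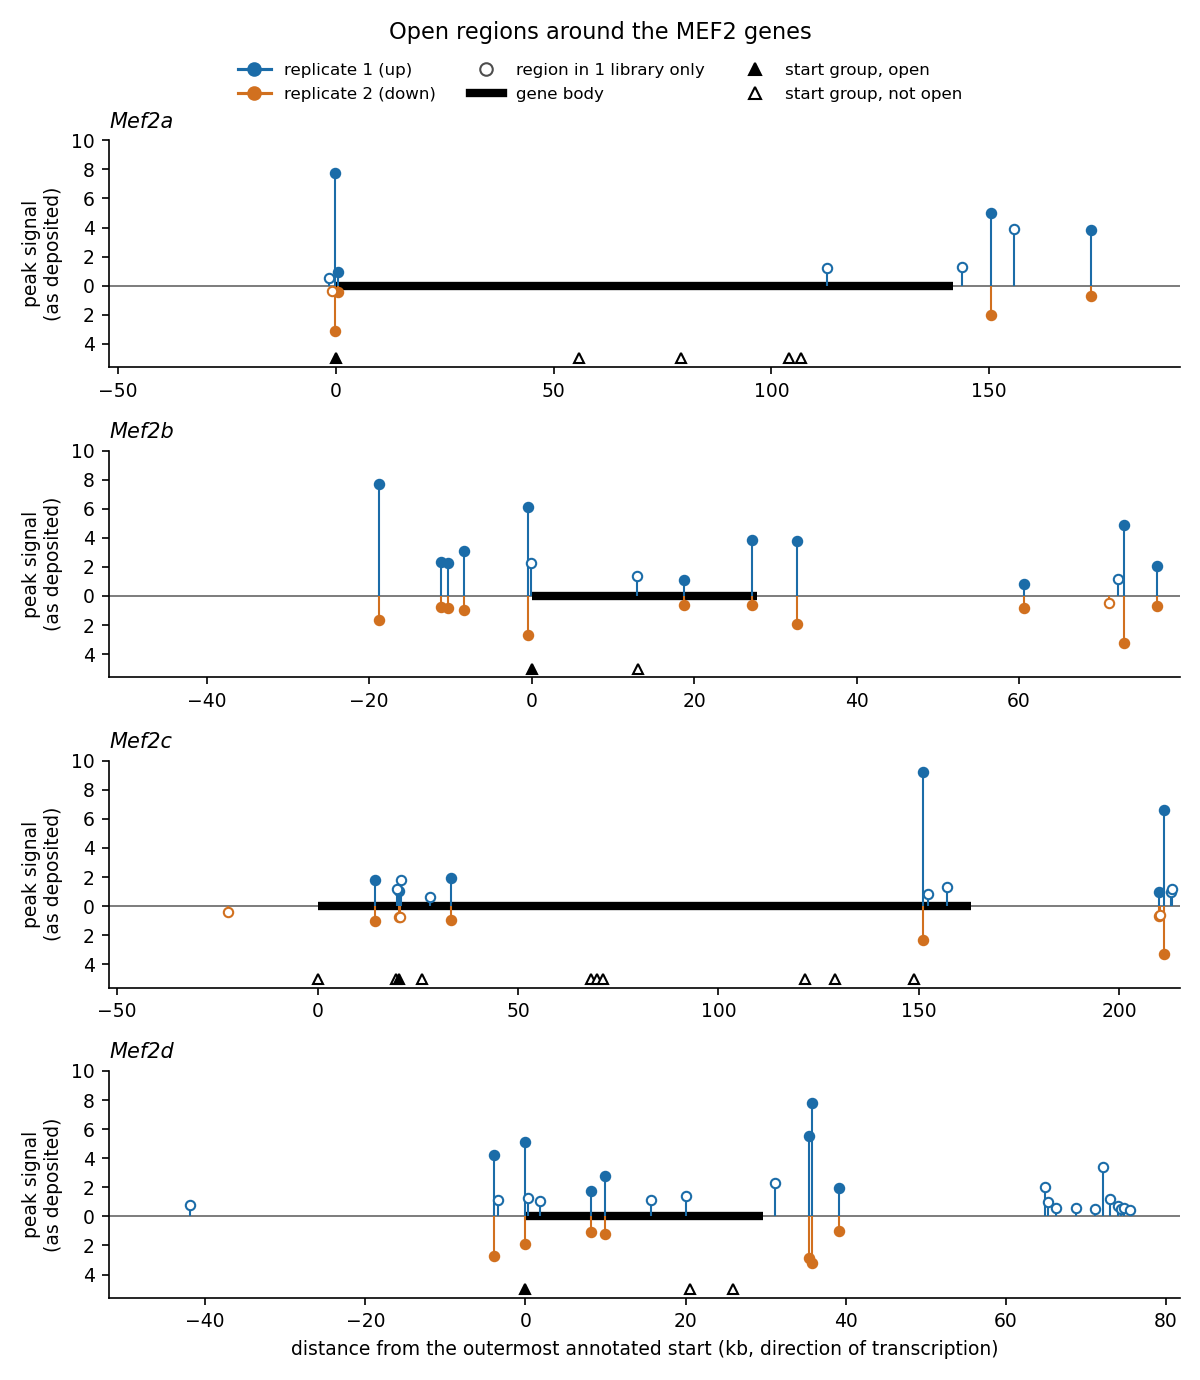
Open regions around each MEF2 gene by distance from its outermost annotated start (kb, in the direction of transcription), with the deposited signal of replicate 1 upward and replicate 2 downward; filled circles are regions of both libraries, open circles regions of 1 library, the black bar is the gene body and triangles are start groups (filled where open). At Mef2c the tallest stems stand 151 and 211 kb from the outermost start, not at the open start group, and at Mef2d a run of open circles near 65 to 75 kb is in replicate 1 only.

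At Mef2c the strongest open chromatin was far from the open starts of the gene. An intron region 151 kb from the outermost start (chr13:83654981-83655160) had 9.22 in replicate 1 and 2.33 in replicate 2, at percentiles 96.1 and 89.8 of all shared regions. An intergenic region 211 kb from that start, beyond the 3′ end of the gene (chr13:83715061-83715300), had 6.60 and 3.26, at percentiles 87.9 and 97.3. Both regions exceeded the Mef2c promoter in each library. Weaker shared regions lay in introns at 14.4 kb (1.80 and 0.998) and 33.3 kb (1.90 and 0.975), and between genes at 210 kb (0.941 and 0.653). The only other annotated start in these surroundings was that of a processed pseudogene, Gm48067, which had no peak.

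The footprints in the far Mef2c regions, and those with motif matches at other members, are printed because they give the protected bases themselves. Capitals mark the span protected in either library, with 8 flanking bases on each side in lower case, in the direction of the member's transcription, and the coordinates are those of the capitals.
Mef2c intron, chr13:83655058-83655089, plus strand: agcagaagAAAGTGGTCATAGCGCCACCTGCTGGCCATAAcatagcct
Mef2c downstream, chr13:83715148-83715194, plus strand: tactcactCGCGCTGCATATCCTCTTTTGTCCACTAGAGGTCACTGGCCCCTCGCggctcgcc
Mef2a downstream, chr7:67199578-67199608, minus strand: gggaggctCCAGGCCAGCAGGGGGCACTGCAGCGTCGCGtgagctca
Mef2d upstream, chr3:88138426-88138448, plus strand: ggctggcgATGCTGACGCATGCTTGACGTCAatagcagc
Mef2d intron, chr3:88152294-88152306, plus strand: ggagctggTTGCCAGGCGACAgttgccta
Mef2b upstream, chr8:70139244-70139264, plus strand: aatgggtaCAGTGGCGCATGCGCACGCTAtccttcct
Mef2b upstream, chr8:70139309-70139334, plus strand: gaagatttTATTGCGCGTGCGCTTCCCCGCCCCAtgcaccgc
The Mef2c intron footprint was 32 bases wide in replicate 1 and 31 in replicate 2 and held a match to the motif of CTCF, the factor that anchors chromatin loops, covered over 13 bases in both libraries. The Mef2c downstream footprint, 47 bases in replicate 1 and 27 in replicate 2, held no match to any motif searched.

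Around Mef2a, 2 of the 4 shared regions were the promoter and a faint region beside it (chr7:67372210-67372420, 0.919 and 0.420). Another lay 150 kb downstream at the starts of Lysmd4 and the long noncoding RNA 1700112J16Rik (4.99 and 2.04). The last lay between genes at 173 kb (3.85 and 0.728), and its footprint, printed above, held a CTCF match covered over 13 bases in replicate 1 and 12 in replicate 2. The 142 kb of gene body past the promoter thus held no region of both libraries, and 1 of replicate 1 alone (1.24).

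Mef2b lay among other open genes. All 6 protein-coding genes with a start there were open. Apart from Rfxank and Borcs8, these were Ncan, which encodes the brain proteoglycan neurocan (7.71 and 1.69), Nr2c2ap (3.10 and 0.990), Tmem161a (3.80 and 1.96) and Slc25a42, a mitochondrial carrier (4.90 and 3.25). Of the 11 shared regions 2 lay in the Mef2b gene body, an intron region (1.08 and 0.608, chr8:70158389-70158624) and an exon region near the 3′ end (3.82 and 0.623, chr8:70166821-70166987). The values of the exon region differed 6.14 times between the libraries, the largest ratio of the 28 shared regions. Of the others, 3 lay between genes, at −11.1 kb (2.31 and 0.780), −10.2 kb (2.25 and 0.848, chr8:70129343-70129600) and 77.0 kb (2.07 and 0.698), and a region of replicate 1 only (1.20) lay near the Slc25a42 start. With 10 kb in place of 50 kb on either side, Mef2b kept 5 regions and 10 shared footprints.

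In the Mef2b promoter region 3 footprints held an NRF1 match, each covered over all 10 bases in both libraries, and 2 of them are printed above. The third, on bases that overlap annotated exons, reads CACTGCGCCTGCGCACCCTT (chr8:70139122-70139141, plus strand, the footprint alone). NRF1 is a factor of housekeeping and mitochondrial genes. The motif was thus in the strongest start region of Mef2a and in that counted for Mef2b, and not in those of Mef2c and Mef2d. The region counted for Mef2b covers an Rfxank start and ends before the Mef2b start. Its NRF1 matches lay at −585, −462 and −398 bp from the Mef2b start.

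Mef2d lay next to a strong antisense gene. An annotated antisense RNA, 1700113A16Rik, had a pair of start regions 35.4 and 35.8 kb from the outermost Mef2d start, with 5.52 and 2.89 in the first and 7.77 and 3.20 in the second, above the Mef2d promoter in both libraries. Upstream, an intergenic region at −3.92 kb (chr3:88138341-88138560) had 4.23 and 2.70, and its footprint held a CRE match (TGACGTNA, bound by CREB and its kin), covered over 7 bases in replicate 1 and 8 in replicate 2. Inside the gene, introns were open at 8.23 kb (1.78 and 1.04) and at 9.93 kb (2.79 and 1.21), the second with a footprint over an RFX match (GTTGCNANG) in both libraries. The last shared region, at 39.2 kb, had 1.95 and 1.04. Iqgap3, the only other protein-coding gene with a start in these surroundings, was not open.

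Of the 4 genes, Mef2d differed most between the libraries. Replicate 1 had 28 peaks in its surroundings and replicate 2 had 7, and 9.28% of the bases were listed with an FDR up to 0.05 in replicate 1 and 3.01% in replicate 2. At Mef2b the same shares were 5.94% and 5.67%, at Mef2c 2.52% and 2.28% and at Mef2a 2.16% and 1.28%. Of the 18 regions found in replicate 1 only, 11 lay in Gm3764, the long noncoding host gene of Mir9-1, one of the genes of the brain microRNA miR-9. Their signals ran from 0.412 to 3.37, those near its starts being 2.01, 1.01, 3.37 and 1.17, and 2 of the 11 were in the longer list of replicate 2. In the part of Gm3764 within the surroundings, 4240 bases passed an FDR of 0.001 in replicate 1 and 40 in replicate 2. The whole of the Mef2d surroundings had 8150 such bases in replicate 1 and 2170 in replicate 2.

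Few regions anywhere held the MEF2 motif. The region at the Mef2a promoter was the only one of the 28 shared regions with a match (3.57%), against 634 of 37090 shared regions overall (1.71%). Likewise 1 of the 62 shared footprints of the members, widened by 8 bp, held a match (1.61%), against 0.121% of all 67021. Without the widening that footprint reached only 4 bases of the match. Both member shares rest on the same single site. In the longer lists 3 of 41 member regions held a match (7.32%), against 2.18% of 61067: the Mef2a promoter, a region at −11.1 kb from Mef2b (2.31 and 0.780), and one 19.8 kb into Mef2c (1.15 and 0.608). The match at Mef2b had no footprint over it in either library, and that at Mef2c had one in replicate 2 only.

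Other motifs were found in the 28 member regions at shares that rest on few regions each. NRF1 matches stood in 4 regions (14.3%, against 4.98% of all shared regions), SP/KLF matches in 9 (32.1%, against 22.9%) and ETS matches (CCGGAAG) in 3 (10.7%, against 8.10%). CTCF matches stood in 2 (7.14%, against 10.7%), AP-1 matches (TGANTCA) in 2 (7.14%, against 6.17%) and RFX matches in 2 (7.14%, against 5.14%). The E-boxes CAGATG and CAGCTG stood in 4 (14.3%, against 20.7%) and 6 (21.4%, against 18.8%). YY1 (AANATGGCG) and NFI matches were in none. A match is a run of letters, and no match says only that those letters are not there.

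Genes linked to MEF2, as regulators, cofactors, relatives or targets, were mostly open too. Of 38 genes in 5 lists 33 were open, against 54.2% of all protein-coding genes, with median signals of 5.80 and 2.29 over the open ones (4.30 and 1.80 for all open genes). The lists were chosen with earlier results of these data known, so the share and medians only describe them. With the 500 bp window Mef2a and Mef2b stood above these medians in both libraries and Mef2d and Mef2c below them. The values of Mef2b are those that it shares with Rfxank and Borcs8.

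Below, highest and lowest are by the mean percentile of both libraries among open genes. Of the deacetylases and corepressors 7 of 8 were open. Hdac4, a class IIa deacetylase that binds MEF2 directly, was highest (8.49 and 3.80) and Hdac9, another of that class, lowest (0.765 and 0.728). Hdac7 had no peak in either strict list (0.919 and 0.660 in the longer lists). Among the upstream kinases and calcineurin subunits 12 of 13 were open. Ppp3ca, the calcineurin catalytic subunit alpha, had the highest promoter of all 38 genes in replicate 1 (13.6, with 4.48 in replicate 2). Prkd1, a kinase that drives class IIa deacetylases out of the nucleus, was lowest (1.06 and 0.510), and Camk4, a calcium-dependent kinase, had a strict peak in replicate 1 only (1.01).

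Of the coactivators 4 of 5 were open, from Ncoa2 (10.6 and 3.74) down to the acetyltransferase Crebbp (6.88 and 1.56), while Kat2b, another acetyltransferase, had a peak in replicate 1 only (1.28). Srf, the MADS-box relative of the MEF2 genes, and its cofactors were open in 3 of 4 cases, from Mrtfa (9.71 and 3.16) to Mrtfb (5.07 and 1.58), while Myocd, the cofactor of heart and smooth muscle, had no strict peak. Of 8 genes known as MEF2 targets in neurons 7 were open, from Jun (8.96 and 4.58) to Nr4a1 (3.76 and 1.59). With the longer lists 36 of the 38 were open, and Myocd was not.

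**Figure D4:**
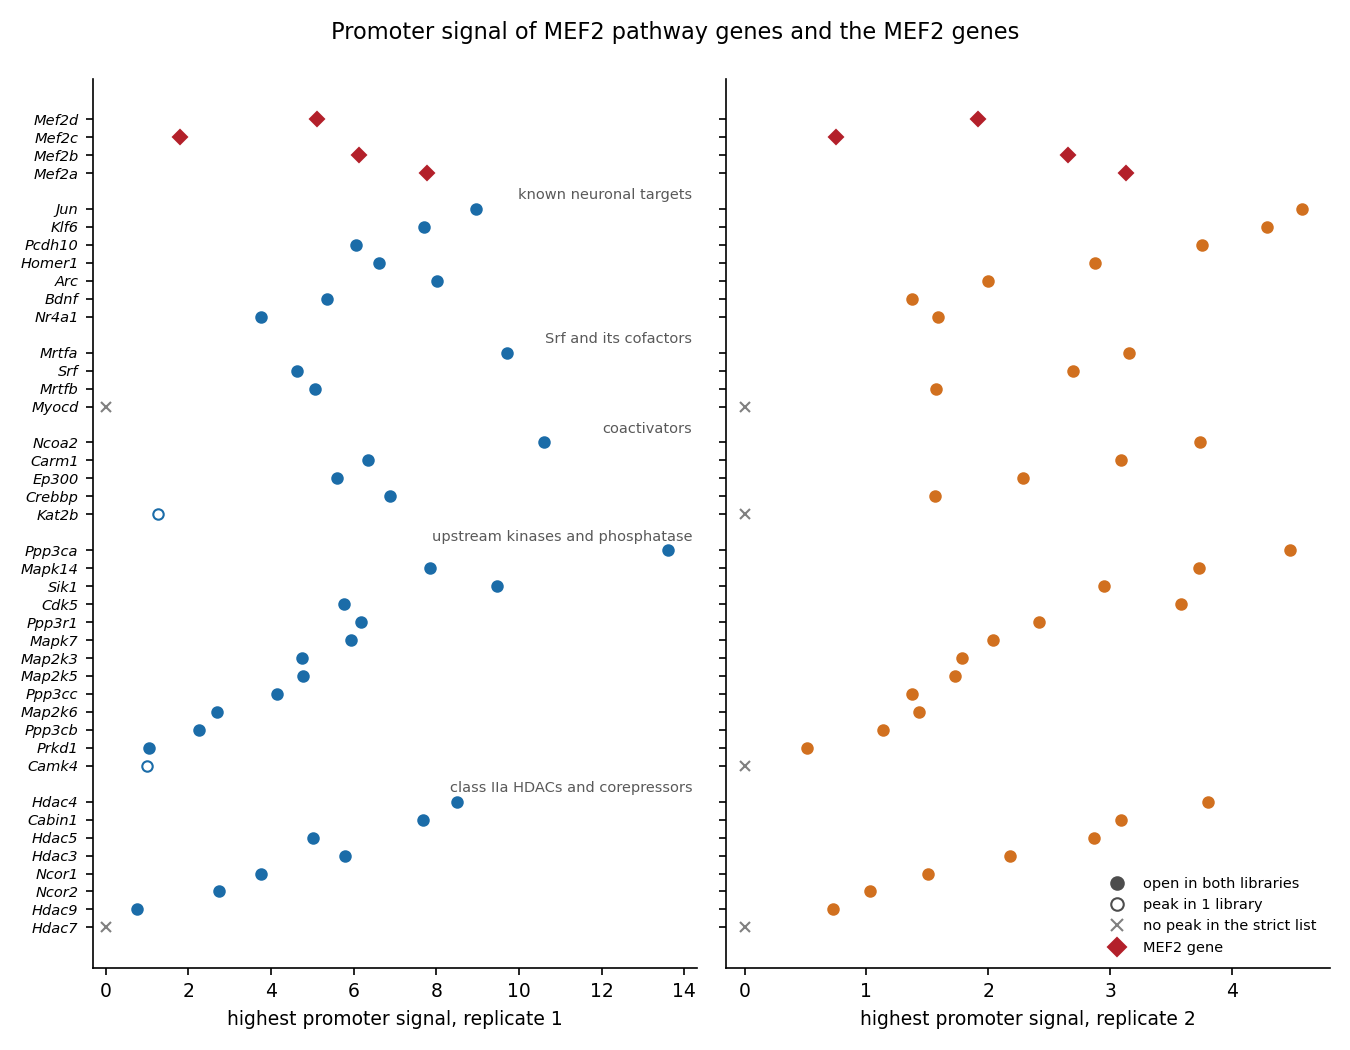
Highest promoter signal of genes linked to MEF2 (regulators, cofactors, relatives and targets), grouped by role, and of the 4 MEF2 genes (red diamonds), in replicate 1 (left) and replicate 2 (right); filled circles are open in both libraries, open circles have a peak in 1 library, and crosses at 0 have no peak in that strict list. Mef2c (1.79 and 0.750) lies among the lowest open genes of the plot, above Hdac9 and Prkd1, and Mef2a (7.77 and 3.13) among the upper ones, with Ppp3ca furthest right in replicate 1 (13.6).

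For each member the most similar protein-coding genes were found by the distance in percentile ranks over 4 measures (promoter signal in each library, shared regions and shared footprints), over these 2 libraries. For Mef2a the nearest was Trp53inp2 (distance 1.19), which also had 4 regions and 10 footprints. For Mef2b they were Midn (1.58) and Tcf3 (2.16), for Mef2c Hhat (0.874) and Hipk2 (1.40), and for Mef2d Apbb2 (2.24) and Kmt5a (2.78). No member was among the nearest of another.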

How the data were processed

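DNase-seq of 2 hippocampal libraries was used as deposited. The authors deposited 2 peak lists, a footprint list and a cut-rate list per library, each made from that library's own alignments per the labels. The deposited signal of a peak (column 7) was used without rescaling, and its scaling is not stated. Aligner and peak caller were not given in the sources used here. In the cut-rate list the deposited p-value is an FDR, listed up to 0.05, and the FDR of the footprint list is 0.01 throughout. Depth is unknown from these files, and 2 libraries limit the precision.

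The strict list is the shorter of each pair (61466 peaks in replicate 1, 50379 in replicate 2; longer lists 104506 and 91751). Footprints numbered 236942 and 159538. Coordinates are on mm10, counted from 1. Starts came from GENCODE M21, sequences from RefSeq GRCm38.p6, and chromosomes 1 to 19, X and Y were used. Overlaps and motif matches were computed in Python 3.11.15 with numpy 2.4.6 and pandas 2.3.3, and the overlap code was tested on simulated data. No test was made, because there is 1 group. The members, gene lists and motifs were chosen with earlier results of these data known.

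Named were the members and their starts, genes with a start in their surroundings, of each pathway list the genes not open and the highest and lowest, per member the 3 strongest shared regions away from starts, every region at a start or with a MEF2 motif, and the 2 most similar genes. The alternatives were other start windows, peak lists, overlaps, flanks and motifs, basic transcripts only, and each library alone. A gene of the neuronal target list, which stays in the counts, and a gene similar to Mef2a are not reported here by name.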

Additional observations from a re-analysis of the deposited data

How the results depend on the processing

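All 4 members were open with the longer lists, with start windows of 250 and 2000 bp, with basic transcripts only and in each library alone, and 3 of 4 with the stronger 50% of the peaks, where Mef2c was lost. With 250 bp the mean promoter signal of Mef2b (2.47) fell under that of Mef2d (3.52), which turned their order. Of the alternatives, 90 left a value within its spread or within 1.5 times and 24 moved a count further. The promoter signals of 1 library alone are not among these, since they lie within the SD of both by construction. For the other promoter signals the spread is the same SD, which includes the difference in scale between the libraries. It is wide enough that the fall of Mef2b to 2.47 counts among the 90. With the longer lists, the 2000 bp window or basic transcripts only, the promoter signal of each member was identical to the main one. Those cases are also among the 90, as is the loss of Mef2c with the stronger 50% of the peaks (3 of 4 members open). The 90 are therefore no measure of how stable the results are. With basic transcripts only, open starts numbered 1 at Mef2a and 5 at Mef2c, and with the stronger 50% of the peaks 0 at Mef2c. That list left 2 shared regions at Mef2a and 6 at Mef2b, whereas the longer lists gave 12 at Mef2c and 12 at Mef2d, and 3 regions with a MEF2 motif. With 10 kb on either side Mef2b had 5 regions and 10 footprints and Mef2c 4 footprints. At Mef2c an overlap of 100% left 6 shared footprints, and footprints inside shared regions numbered 5.

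Each library alone gave 1 to 3 open starts at Mef2b and 10 to 11 at Mef2c. Regions ran from 5 to 8 at Mef2a, 12 to 15 at Mef2b, 9 to 13 at Mef2c and 7 to 25 at Mef2d, and footprints from 14 to 44, 48 to 59, 31 to 59 and 25 to 80, since these counts no longer require both libraries. No paired analysis was possible because the study has 1 group. The number of libraries, not a known depth, limits these values.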
